A study of Mus musculus with 8 samples.

Results

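The genes described here encode the constitutive proteasome: its core and regulatory subunits, its activators and inhibitor, and its assembly chaperones. Their transcripts were measured in double-positive thymocytes, a stage of T-cell development with CD4 and CD8 both on the surface, from mice labelled c-Myb sufficient or c-Myb deficient. Members were all genes whose only symbol in the array annotation is Psma, Psmb, Psmc, Psmd, Psme, Psmf or Psmg followed by a number, without the inducible subunits Psmb8, Psmb9 and Psmb10. The rule found 46 of the 18193 genes that have a probe set with 1 symbol, and these members have 99 probe sets. Each gene was read from the probe set that was brightest on average (mean of the log2 values). A gene was tested when its signal was above 33.8, the table's median, on 4 or more of the 8 arrays. By this filter 44 members and 9941 genes in all were tested.

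Each of the 8 one-colour arrays carried RNA of 1 mouse, 4 labelled Control (c-Myb sufficient) and 4 labelled Mutant (c-Myb deficient). All mice were 4 to 5 weeks old, lacked Tcra, the T-cell receptor alpha gene, and carried Cd4-Cre, a recombinase driven by Cd4 sequences that is active in cells expressing CD4. The labels disagree on the Myb alleles, because the source names give the Controls Mybf/f Cd4-Cre Tcra-/- and the Mutants Mybf/w Cd4-Cre Tcra-/-. Groups follow the titles and the genotype field, so all directions refer to the arrays by their labels. Thymocytes had been enriched on columns with an antibody against CD4.

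Myb did not settle the labels. Its probe set 1421317_x_at read 10387.9, 10329.9, 8405.4 and 8326.5 on the Control arrays and 11530.2, 11754.0, 11365.9 and 10511.9 on the Mutant arrays. The log2 difference was 0.28 ± 0.08 (SE; adjusted p = 0.0619, limma), so Myb was not lower on the arrays labelled Mutant. It passed in 3 of the 8 fits that left out an array and with the replicate number as a block (adjusted p = 0.0292, limma), but was 0.18 after quantile normalization (adjusted p = 0.262, limma) and 0.12 with the Xist class (adjusted p = 0.818, limma). The Mutants lay above the Controls for 1422734_a_at as well (4518 ± 460 on Control, 5777 ± 428 on Mutant arrays, SD, n = 4), and the groups overlapped for 1450194_a_at (7293 ± 846 and 7480 ± 323). The 3 Myb probe sets carry no note of whether they lie in the deleted part of the gene, and they do not check the deletion. Markers of double-positive cells were strong, with a summed signal over 8 genes of 53894 to 57524 on Control and 51546 to 54899 on Mutant arrays, and 0 of these 8 were higher and 2 lower on the Mutant arrays. The lower ones were Rag2 (-0.41, adjusted p = 0.0056, limma) and Dntt (-0.26, adjusted p = 0.0403, limma). With the Xist class their differences were -0.46 and -0.22 and neither passed (adjusted p = 0.162 and 0.567, limma), and Dntt passed in only 2 of the 8 fits that left out an array. Rag1, Cd4, Cd8a, Cd8b1, Ptcra and Cd3e did not pass, with differences from -0.08 to 0.08. Xist was high on all 4 Mutant arrays and on 1 Control array, Control 1 at 4358.5, and lay at 23.4 to 36.7 on the other Controls. Eif2s3y, a gene of the Y chromosome, read 1217.2 to 1334.6 on Control 2, 3 and 4. It read 2.1 on Control 1 and 1.3 to 15.2 on the Mutant arrays, and Kdm5d and Uty showed the same pattern. By these transcripts Control 2, 3 and 4 read as male and all other arrays as female, so group and sex are nearly confounded. A fit with the Xist class (signal above or below 1000) as a covariate is given where it bears on a call. In bulk RNA, fewer cells of a type and less RNA per cell cannot be told apart.

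The proteasome degrades proteins tagged with ubiquitin. Its core is a barrel of alpha and beta rings whose catalytic beta subunits cut the substrate, and a regulatory particle on either end, made of a base with a ring of ATPases and a lid, binds ubiquitin, removes it and threads the protein in. Assembly chaperones build both particles, and activators of the Psme family can cap the core in place of the regulatory particle. In the thymus, specialised core subunits are known in the cortical epithelium, and thymocytes use the standard and the inducible forms.

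Transcripts of the constitutive proteasome were close to equal in the 2 groups, with a single exception. Psmg1, a chaperone that starts assembly of the core, was higher on the arrays labelled Mutant, and no member was lower. That is 1 of 44 members (2.27%) past an adjusted p of 0.05, against 9.98 percent of all 9941 tested genes, which split into 5.89 percent higher and 4.08 percent lower. That split, 586 genes higher and 406 lower, turned to 450 higher and 518 lower when each array was centred on its own median. At an unadjusted p under 0.05 the count was again 1 of 44 members, against 2492 of the 9941 genes. Complete separation of the Mutant from the Control arrays was seen for 1 of 44 members, again Psmg1, against 17.0 percent of all genes, 9.88 percent with the Mutants above and 7.11 percent with them below.

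The members' differences were small in size as well as in number. The median absolute log2 difference was 0.07 over the 44 members, 0.16 over all tested genes and 0.13 over the 5345 tested genes within the members' range of mean signal. The difference was under 0.2 in size for 41 of 44 members (93.2%) and for 59.6% of all genes. The 95% interval of the difference lay wholly within 1.25-fold either way for 31 members (70.5%), against 21.6% of all genes and 32.9% of the genes of like signal. It lay within 1.5-fold for 43 members (97.7%), all but Psmg1, against 67.9% of all genes. These intervals come from the fit without the Xist class, and group and sex are nearly confounded. With the class, the SE of Psma3, the smallest of the members in the main fit, went from 0.06 to 0.10. That of Psmc4, the largest, went from 0.20 to 0.31. The part of sex in these small differences was not tested. The median signed difference was 0.03 for the members and 0.02 for all genes. The members' median turned to -0.01 when each array was centred on its own median, and was 0.08 with the Xist class. The 20 alternatives changed the processing or the model, as with the Xist class, or left out each array in turn. Under at least 1 of them, 21 of the 44 members changed sign. For 17 of these, which differed by at most 0.07 in size, only levels and intervals are given below, a choice made after the values were seen.

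**Figure D1:**
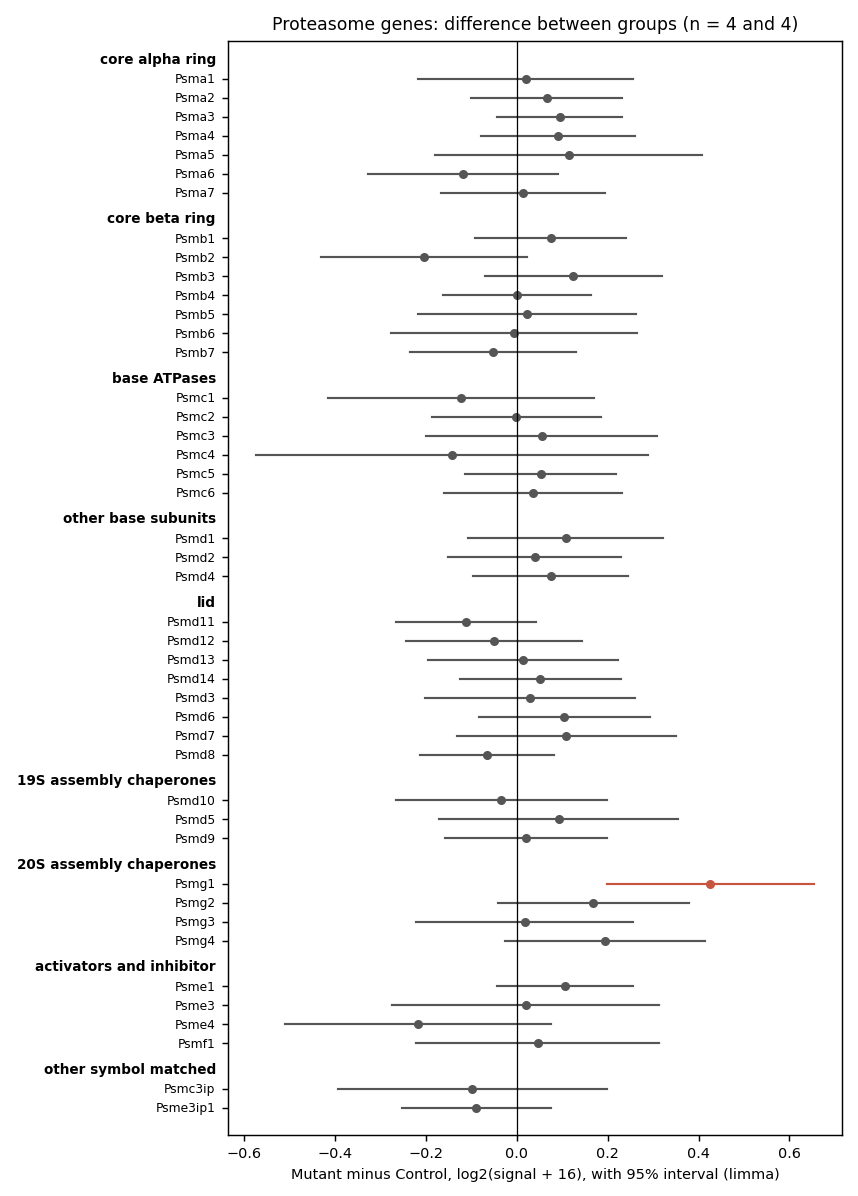
The plot shows the log2 difference, Mutant minus Control, of log2(signal + 16) for each tested member with its 95% interval from limma, grouped by role (n = 4 arrays per group). Psmg1 at 0.43 is the only one of the 44 past an adjusted p of 0.05, and the intervals of the other 43 cross 0.

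The 20S assembly chaperones held the 1 called member. Psmg1, which pairs with Psmg2 to assemble the alpha ring, read 1069.6, 899.9, 1003.0 and 1221.4 on the Control arrays and 1544.8, 1381.4, 1286.7 and 1422.6 on the Mutant arrays. Every Mutant array lay above every Control array, with Control 4 the nearest Control at 1221.4 and Mutant 3 the nearest Mutant at 1286.7. Group means were 1048 ± 135 and 1409 ± 107 (SD, n = 4 each), a log2 difference of 0.43 ± 0.10 (SE) or 1.34-fold, with a 95% interval of 0.20 to 0.66 (adjusted p = 0.0263, limma). The call held in 4 of the 8 fits that left out 1 array. It was lost without Control 1 (adjusted p = 0.0537), without Control 3 (0.0846), without Mutant 1 (0.0830) and without Mutant 2 (0.0688), all from limma. With the Xist class as a covariate the difference was 0.39 ± 0.17 (SE), and the adjusted p was 0.480 in limma.

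The stretch before the Psmg1 start is shown because it is the promoter of the only called member. It covers the 250 bases before the start in RefSeq's promoter table, chr16:95990961-95991210 on the minus strand of GRCm38.p6, and capitals mark matches to AACNG, a core of the sequence bound by Myb proteins, or to its reverse complement CNGTT.
Psmg1: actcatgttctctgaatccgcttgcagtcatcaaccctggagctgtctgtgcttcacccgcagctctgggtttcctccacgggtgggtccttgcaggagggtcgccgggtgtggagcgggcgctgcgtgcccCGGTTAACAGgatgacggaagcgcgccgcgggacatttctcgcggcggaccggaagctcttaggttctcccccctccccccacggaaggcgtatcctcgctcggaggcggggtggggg
The 2 matches stand next to each other and share no base, and the first begins 118 bases before the start. Promoters with a match were common, 76.8% of 27025 genes and 31 of the 38 members with an entry (81.6%), so the match is a description of the letters and no more.

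The other 3 chaperones of the core did not pass the test. Psmg2 read 998.7, 919.0, 1002.2 and 1200.3 on Control and 1242.1, 1116.0, 1107.4 and 1155.1 on Mutant arrays, a difference of 0.17 ± 0.10 (SE; adjusted p = 0.311, limma). Only Mutant 1 lay above all Controls. Psmg4, which works with Psmg3 on the alpha ring, read 345.5, 281.5, 313.3 and 342.2 on Control and 381.2, 380.0, 372.5 and 338.6 on Mutant arrays. Mutant 1, 2 and 3 lay above all Controls and Mutant 4 among them, and the difference was 0.19 ± 0.10 (SE; adjusted p = 0.265, limma). Psmg3 itself read 460 ± 46.4 on Control and 466 ± 47.5 (SD, n = 4) on Mutant arrays, with an interval of -0.22 to 0.26. Pomp, which completes the beta ring and is not a member by its symbol, differed by 0.10 ± 0.08 (SE) and did not pass (adjusted p = 0.504, limma).

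The alpha ring forms the gate of the core. All 7 tested members missed the threshold, and the lowest adjusted p among them was 0.396 (limma), for Psma3 at 0.09 ± 0.06 (SE). Psma3 read 4345 ± 179 on Control and 4640 ± 195 (SD, n = 4) on Mutant arrays, and Mutant 1, 2 and 4 lay above all Controls. Psma5 at 0.11, Psma4 at 0.09 and Psma2 at 0.07 differed by less than the spread between arrays. Psma1 (2994 to 4120 on Control, 3406 to 4109 on Mutant arrays) and Psma7 (1854 to 2275 and 2060 to 2265) overlapped almost wholly. The eighth, Psma8, a form known from testis, stayed at 7.1 to 23.2 on every array, below the filter, and was not tested.

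Psma6 depended on the probe set that read it. The probe set used for the gene, 1437144_x_at, read 6533.1, 5771.3, 6731.0 and 6969.8 on Control and 6511.5, 5635.3, 5127.5 and 6750.8 on Mutant arrays. The groups overlapped, and the difference was -0.12 ± 0.10 (SE; adjusted p = 0.491, limma). A second one, 1416506_at, read 5368.0, 5023.9, 5974.5 and 5993.6 on Control and 4661.6, 4273.9, 3946.6 and 4958.3 on Mutant arrays. Here every Mutant array lay below every Control array, at -0.33 ± 0.09 (SE), with an adjusted p over all probe sets of 0.0560 (limma). The dimmer 1435317_x_at and 1435316_at differed by -0.23 and -0.54. Psma6 was called lower with the mean of its probe sets (-0.30, adjusted p = 0.0373, limma) and with 1416506_at alone, after probe sets marked _x_at or _s_at, which can bind several transcripts, were left out (-0.33, adjusted p = 0.0406, limma).

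The beta ring holds the catalytic sites in Psmb5, Psmb6 and Psmb7. Psmb5, the chymotrypsin-like subunit, read 2426.3, 1758.3, 2113.1 and 2306.1 on Control and 2322.9, 2139.8, 1912.5 and 2330.4 on Mutant arrays. Psmb6, the caspase-like subunit, read 2224.5, 2019.4, 2568.5 and 2834.3 on Control and 2498.3, 2241.3, 2047.3 and 2797.3 on Mutant arrays. Psmb7, the trypsin-like subunit, read 4844.7, 4488.8, 5259.9 and 5558.0 on Control and 5065.7, 4840.4, 4342.4 and 5153.7 on Mutant arrays. The groups overlapped for all of these, and in each the lowest Control was Control 2 and the lowest Mutant was Mutant 3. The 95% intervals were -0.22 to 0.26 for Psmb5, -0.28 to 0.26 for Psmb6 and -0.24 to 0.13 for Psmb7.

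Among the structural beta subunits Psmb2 had the largest difference. It read 1514.1, 1204.9, 1234.4 and 1500.8 on Control and 1306.0, 1187.8, 1117.7 and 1098.8 on Mutant arrays. Mutant 2, 3 and 4 lay below all Controls, and Mutant 1 lay among them. The difference was -0.20 ± 0.10 (SE), and its adjusted p of 0.251 in limma was the lowest of the 43 members that were not called. Psmb3 at 0.12, Psmb1 at 0.07 and Psmb4 (interval -0.16 to 0.16) did not pass. Psmb11, the beta subunit known from cortical thymic epithelium, read 1.1 to 11.0 and was dim on all 8 arrays. Foxn1, the defining factor of that epithelium, was dim on all arrays too, but 4 of the 8 listed epithelial markers passed the filter. Epcam read 43.5 to 116.7, Ly75 87.1 to 149 and Ccl25 35.9 to 97.6 over all arrays, and Krt5 was above 33.8 on 4 arrays. The summed signal of the 8 epithelial markers was 305 to 399 on Control and 298 to 386 on Mutant arrays.

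None of the 6 ATPases of the base, which unfold the substrate, passed the test. Psmc4 had the widest error of all members. It read 2847.5, 2505.1, 3866.7 and 5024.2 on Control and 2753.5, 2751.8, 3151.4 and 3898.2 on Mutant arrays, so the Control arrays alone spanned the Mutant range. The difference was -0.14 ± 0.20 (SE), and it turned to 0.04 without Control 4 and to 0.12 with the Xist class. Psmc1 at -0.12 and Psmc5 at 0.05 did not pass. Psmc2 (2217 to 2597 on Control, 2234 to 2605 on Mutant arrays), Psmc3 (2665 to 3340 and 2618 to 3530) and Psmc6 (2444 to 3054 and 2668 to 2974) overlapped.

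The remaining base subunits are the scaffolds Psmd1 and Psmd2 and the ubiquitin receptor Psmd4. Psmd1 read 1294 ± 159 on Control and 1390 ± 86.9 (SD, n = 4) on Mutant arrays, a difference of 0.11 ± 0.10 (SE). Psmd4 differed by 0.07 ± 0.08 (SE), with Control 1 the lowest array at 1986.2. Psmd2 differed by 0.04 ± 0.09 (SE), which turned to -0.0017 after median centring. The lowest adjusted p of these 3 was 0.553 (limma).

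The lid, which carries the deubiquitinase Psmd14 next to its partner Psmd7, had 8 tested members and no call. Psmd11, a lid scaffold, had the lowest adjusted p, 0.360 in limma. It read 3824.2, 3415.4, 3560.8 and 3709.1 on Control and 3184.3, 3499.4, 3182.6 and 3553.2 on Mutant arrays, a difference of -0.11 ± 0.07 (SE), and Mutant 1 and 3 lay below all Controls. All 5 of its probe sets past the filter had differences below 0, from -0.30 to -0.03. Psmd14 at 0.05 ± 0.08 (SE), Psmd6 at 0.10 ± 0.09 (SE) and Psmd7 at 0.11 ± 0.11 (SE) did not pass. For Psmd3, Psmd8, Psmd12 and Psmd13 the bounds of the intervals lay between -0.24 and 0.26.

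The chaperones that assemble the base, Psmd5, Psmd9 and Psmd10, gave no call. Psmd9 read 540.3, 506.8, 535.0 and 534.0 on Control and 563.2, 528.2, 533.8 and 520.7 on Mutant arrays, with an interval of -0.16 to 0.20. Psmd10, also known as gankyrin, read 652 ± 55.7 on Control and 637 ± 73.2 (SD, n = 4) on Mutant arrays. Psmd5 differed by 0.09 ± 0.12 (SE), and its sign turned with the Xist class (-0.04) and without Control 2 (-0.02).

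The activators and the inhibitor gave no call either, and Psme4 hung on a single mouse. Psme4, a large activator known for a role in chromatin and sperm development, read 1366.7, 2028.3, 2091.6 and 1976.7 on Control and 1695.4, 1554.4, 1399.1 and 1691.5 on Mutant arrays. Control 1 was the lowest of all 8 arrays, and the other Controls lay above every Mutant. The difference was -0.22 ± 0.13 (SE; adjusted p = 0.349, limma). Without Control 1 it was -0.36 and passed (adjusted p = 0.0457, limma), and with the Xist class it was 0.21 (adjusted p = 0.668, limma). Control 1 is the Control array with high Xist, and the part of Xist class in this difference was not tested beyond that fit. Further Psme4 probe sets gave -0.39 (1426824_at) and -0.27 (1452211_at), and the dim 1445147_at and 1446464_at gave 0.09 and 0.16.

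Psme1, the alpha subunit of the activator induced by interferon gamma, read 2560.5, 2678.0, 2717.8 and 2734.5 on Control and 3070.1, 2775.1, 2949.0 and 2730.9 on Mutant arrays. Mutant 1, 2 and 3 lay above all Controls and Mutant 4 did not, and the difference was 0.11 ± 0.07 (SE; adjusted p = 0.374, limma). The probe set of its partner Psme2 also names Psme2b and was therefore no member. It read 1227 ± 141 on Control and 1593 ± 131 (SD, n = 4) on Mutant arrays, and every Mutant array lay above every Control array. The difference was 0.38 ± 0.10 (SE), with an adjusted p over all probe sets of 0.0595 (limma). With the same adjustment over probe sets, Psmg1 had 0.0423 (limma). Psme3, the nuclear activator, read 420 to 578 on Control and 423 to 585 on Mutant arrays. Psmf1, an inhibitor of the core, read 434 to 532 and 443 to 617. Psmc3ip, a factor of meiotic recombination, and Psme3ip1, a binding partner of Psme3, met the rule by their symbols and are not subunits. They differed by -0.10 and -0.09 and did not pass, and without them 1 of 42 members was called.

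Where several probe sets read a member, they did not always point the same way. Of the 99 probe sets of members, 84 passed the filter and 1 was called, against 5.82 percent of the 22599 probe sets tested. Of 23 members with several probe sets past the filter, 15 had them all on the same side of 0, a share not taken over all genes. Besides Psme4, the exceptions were Psma1, Psma7, Psmc2, Psmd4, Psmd9, Psme3 and Psmf1.

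**Figure D2:**
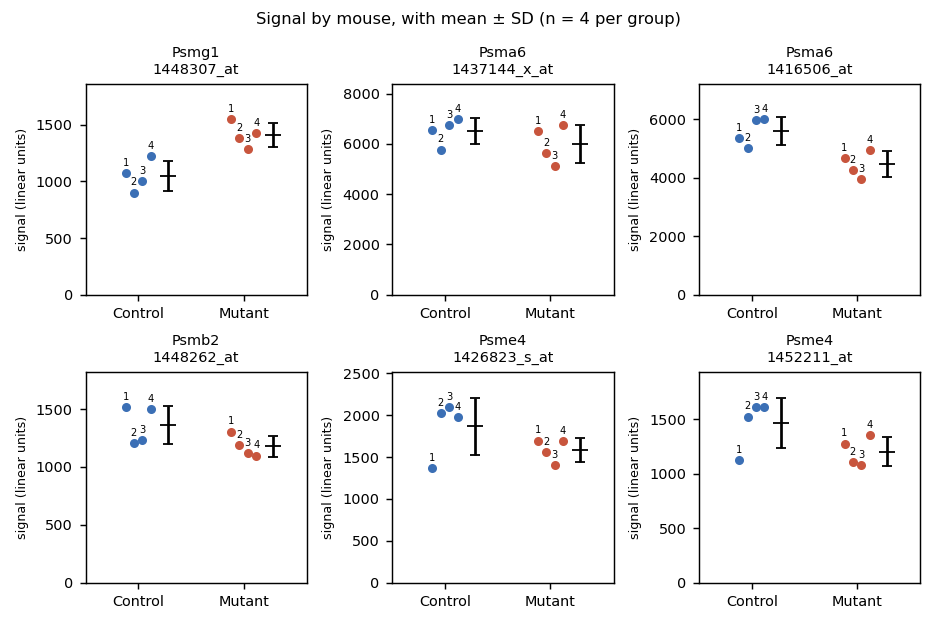
The panels show the linear signal on each array (points numbered by mouse, with mean ± SD beside them, n = 4 per group) for Psmg1, Psmb2 and the brightest pair of probe sets of Psma6 and of Psme4. The groups separate for Psmg1 and for the second Psma6 probe set, and Control 1 stands below the other Controls for both Psme4 probe sets.

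The members moved together from mouse to mouse, and single mice differed more than the group means did. A mean of 4 arrays varies less than single arrays, so these are unlike measures. For each array, every member's log2 signal was set against that member's mean over the 8 arrays, and the median over the 44 members was taken. These medians were -0.05, -0.14, 0.03 and 0.11 on Control 1 to 4 and 0.08, -0.02, -0.09 and 0.09 on Mutant 1 to 4. Control 4 stood highest, with 39 of 44 members above their own mean, and Control 2 lowest, with 5. On the Mutant side, Mutant 1 had 37 members above and Mutant 3 had 6.

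From the lowest to the highest array the median ran over 0.26 log2 units for the members, over 0.04 for all tested genes and over 0.09 for genes of like signal. A median over 44 genes can range wider than one over 9941 or 5345 genes. No other set of like size was compared, so the wider range is not shown to be particular to these members. The difference between the groups, as the mean of the array medians, was 0.03, with an SD of 0.11 among Controls and 0.08 among Mutants. The medians of all 8 role classes were below 0 on Control 2 and above 0 on Control 4 and on Mutant 1. The other arrays were mixed, with 1 class above 0 on Control 1, 5 on Control 3, 2 on Mutant 2, 1 on Mutant 3 and 6 on Mutant 4. The 20S assembly chaperones, which include Psmg1, stood against the members' median on Control 3 (-0.12), Mutant 2 (0.10) and Mutant 3 (0.06). After quantile normalization the range was 0.21, and with each array left out in turn it lay between 0.21 and 0.27.

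**Figure D3:**
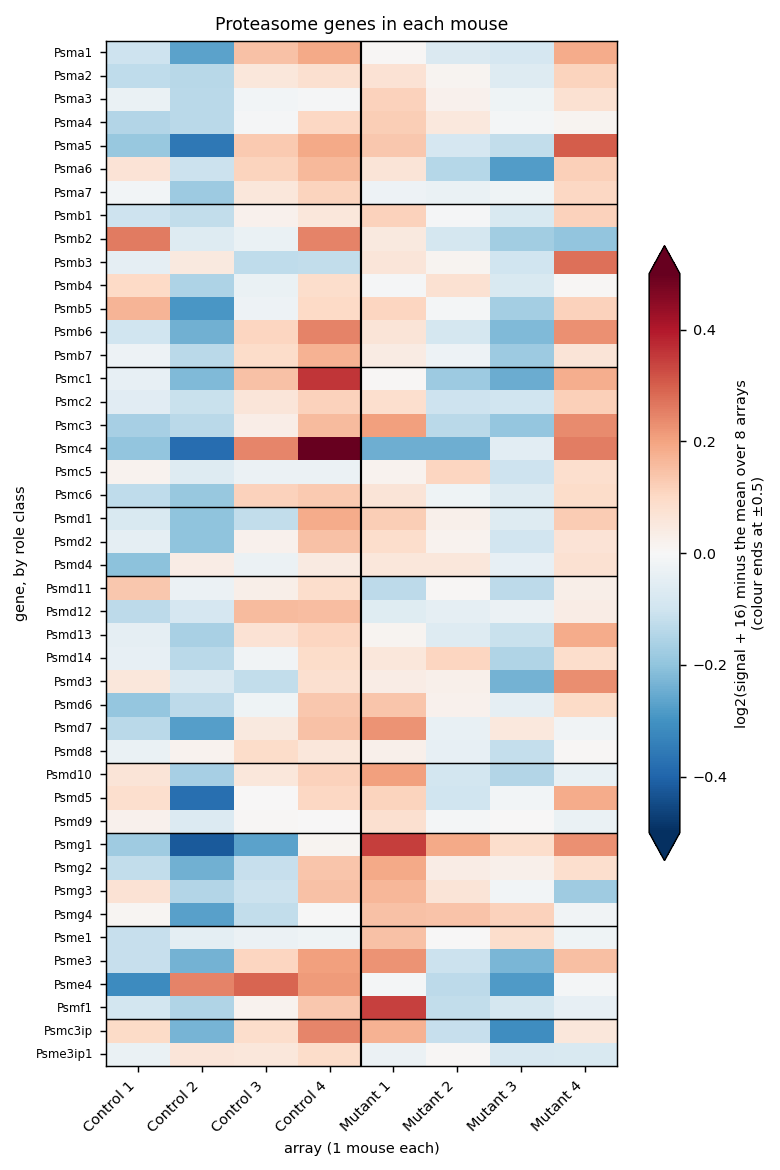
The map shows, for each tested member (rows, by role) and array (columns), the log2 signal minus that member's mean over the 8 arrays. Control 2, with 5 of 44 members above their mean, and Mutant 3, with 6, are mostly blue, and Control 4, with 39, and Mutant 1, with 37, are mostly red.

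The median signal of an array, over all its probe sets, ran opposite to this pattern. Mutant 4, Control 3, Control 4 and Mutant 1, whose member medians were above 0, had array medians of 30.0, 30.3, 32.4 and 33.5. Control 2, Control 1, Mutant 2 and Mutant 3, whose member medians were below 0, had array medians of 34.9, 35.7, 36.0 and 37.9. After quantile normalization, which gives all arrays the same distribution, the members' medians were -0.02, -0.11, 0.00 and 0.09 on Control 1 to 4 and 0.07, 0.01, -0.04 and 0.04 on Mutant 1 to 4, so Control 2 stayed lowest and Control 4 highest. The ratio of 3' to 5' signal of Actb, a measure of RNA integrity, was 1.18 on Mutant 3 and 1.23 to 1.31 elsewhere. The 18S signal was 676 to 1459 except on Mutant 4 at 7143. The part of array signal or RNA quality in the pattern was not tested.

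**Figure D4:**
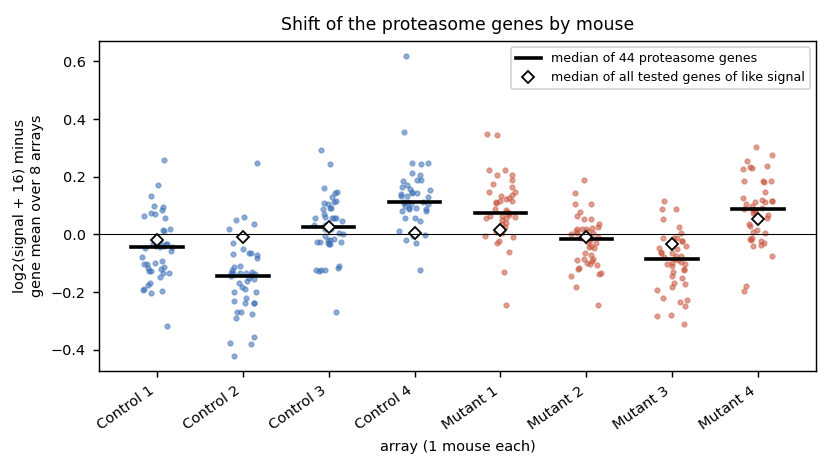
The plot shows, for each array, the log2(signal + 16) of the 44 members minus each member's mean over the 8 arrays (points), their median (bar) and the median of the 5345 tested genes of like signal (diamond). The members' median runs from -0.14 on Control 2 to 0.11 on Control 4, farther than that of the 5345 genes, which are a much larger set.

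Other genes of the pathway were read from 4 lists, of the inducible subunits, partners of the proteasome, factors that control its genes, and ubiquitin supply with the unfoldase. Of 36 listed genes, 27 had a probe set with 1 symbol and were tested, and of these 3 were higher and 1 was lower on the arrays labelled Mutant, with 23 not passed. The 4 calls among 27 stand against the 9.98 percent called of all tested genes. The median difference over the 27 was 0.06. The other listed genes were not analysed here.

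The inducible subunits replace the catalytic ones in cells exposed to interferon. Psmb9, the counterpart of Psmb6, read 1081.3, 870.4, 844.3 and 1124.6 on Control and 1239.4, 1315.4, 1280.1 and 1078.5 on Mutant arrays. Mutant 1, 2 and 3 lay above all Controls and Mutant 4 did not, and the difference of 0.33 ± 0.11 (SE) did not pass (adjusted p = 0.0965, limma). With array weights it passed, at 0.38 (adjusted p = 0.0270, limma), and with the Xist class the difference was 0.18 ± 0.18 (SE; adjusted p = 0.809, limma). Psmb8, the counterpart of Psmb5, differed by -0.08, and Psmb10, the counterpart of Psmb7, by 0.08, which turned to -0.0071 without Mutant 1.

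Among the partners, Ecpas, a scaffold that binds the core to the regulatory particle, was higher on the Mutant arrays. It read 354.6, 445.6, 454.8 and 423.1 on Control and 541.9, 563.7, 595.6 and 535.5 on Mutant arrays, without overlap. The difference was 0.41 ± 0.10 (SE; adjusted p = 0.0285, limma), and it passed in 3 of 8 fits that left out an array. With the mean of its probe sets the difference was 0.18 (adjusted p = 0.532, limma), and its other probe sets gave 0.51, -0.05 and -0.13. The call was lost without Control 1, Control 4, Mutant 1, Mutant 2 or Mutant 3, at adjusted p-values of 0.0526 to 0.0827 (limma). The other 13 tested partners did not pass. Nearest was Akirin2, lower at -0.25 ± 0.08 (SE; adjusted p = 0.0912, limma). Ube3c (-0.25, adjusted p = 0.118, limma) and Zfand5 (-0.15, adjusted p = 0.194, limma) were lower on every Mutant than on every Control array, as were 7.11 percent of all genes.

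Proteasome genes are induced by Nfe2l1, a factor of the endoplasmic reticulum that the glycanase Ngly1 processes and that binds DNA with small Maf proteins. Nfe2l1 read 249 ± 38.7 on Control and 250 ± 24.7 (SD, n = 4) on Mutant arrays. Its relative Nfe2l2 differed by 0.20 ± 0.10 (SE; adjusted p = 0.278, limma). Ngly1 read 1598.4, 1608.4, 1527.4 and 1431.9 on Control and 1973.9, 1979.9, 1979.4 and 1719.0 on Mutant arrays, all Mutants above all Controls. It was higher by 0.31 ± 0.08 (SE; adjusted p = 0.0346, limma), and passed in 2 of 8 fits that left out an array, those without Control 2 or Mutant 4. In the others its adjusted p was 0.0580 to 0.106 (limma), and it also missed the threshold with median centring (0.0590), no dim filter (0.0505) or no variance trend (0.0637).

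Of the small Maf genes, Mafg was higher and Mafk lower on the Mutant arrays. Maff did not pass, at -0.49 ± 0.21 (SE; adjusted p = 0.176, limma). Mafg read 93.4, 66.4, 48.3 and 63.0 on Control and 169.9, 212.6, 283.3 and 110.2 on Mutant arrays, a log2 difference of 1.28 ± 0.25 (SE; adjusted p = 0.0095, limma). It passed in all 8 fits that left out an array, and a second probe set gave 0.71. The Control signals of Mafg were not far above the filter's 33.8. Mafk read 366.5, 365.1, 426.1 and 306.4 on Control and 284.0, 264.1, 263.2 and 254.7 on Mutant arrays, and was lower by -0.43 ± 0.11 (SE; adjusted p = 0.0346, limma). Its groups did not overlap, but it passed in only 1 of 8 such fits, the one without Control 4, with adjusted p-values of 0.0532 to 0.112 in the others and 0.0625 with no dim filter (limma). With the Xist class as a covariate none of the 4 genes passed in limma, while all kept their direction. The differences were then 0.87 for Mafg (adjusted p = 0.476, limma), 0.63 for Ecpas (0.112), 0.25 for Ngly1 (0.567) and -0.44 for Mafk (0.445).

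**Figure D5:**
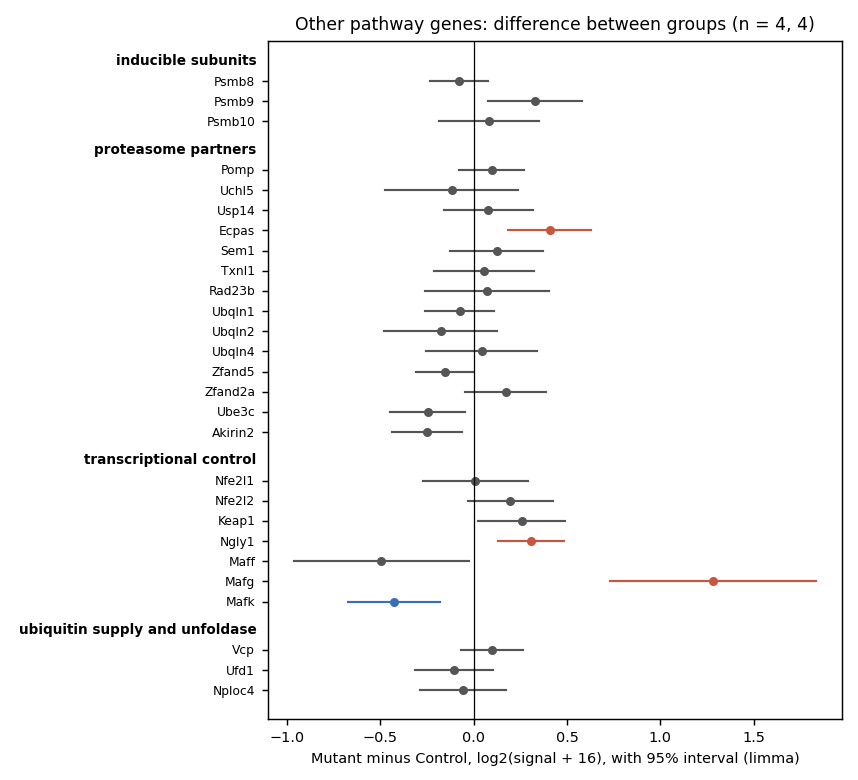
The plot shows the log2 difference, Mutant minus Control, with its 95% interval for the 27 tested pathway genes that are not members (n = 4 arrays per group). Ecpas, Ngly1 and Mafg are higher and Mafk is lower past an adjusted p of 0.05.

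Promoters of the members were searched for the letters that Nfe2l1 and small Maf proteins are known to bind, TGACNNNGC or its reverse complement GCNNNGTCA, in the 250 bases before the start. RefSeq's table of GRCm38.p6 had an entry for 38 of the 46 members. A match was found in 5 of them (13.2%), against 11.5% of 27025 genes. The matches are shown, with up to 10 bases on each side and the match in capitals, because they are the only ones among the members: Psmb5 at chr14:54618024-54618052 (minus strand), Psmb6 at chr11:70525338-70525356, Psmc6 at chr14:45329587-45329615, Psmd12 at chr11:107479278-107479299 and Psmd9 at chr5:123228149-123228177 (plus strand).
Psmb5: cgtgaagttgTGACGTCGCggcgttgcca
Psmb6: ctaaagagagTGACGGAGC
Psmc6: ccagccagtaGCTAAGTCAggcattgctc
Psmd12: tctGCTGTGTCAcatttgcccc
Psmd9: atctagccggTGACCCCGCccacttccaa
None of these 5 genes passed the test, and their differences ran from -0.05 to 0.04, with a median of 0.02 against 0.03 for the 32 tested members with an entry and no match. CCAAT or ATTGG, the box bound by NF-Y, was in 15 of 38 members (39.5%) and in 37.5% of all genes. Matches of different motifs may share bases and were counted separately.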

How the data were processed

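RNA from 8 mice was measured on 1 array each. Values are the authors' linear intensities, 1 per probe set and array, from GCOS per the submitters' processing notes, with settings not given in the sources used here. These deposited intensities had a 2% trimmed mean of 250.0 on each array, so arrays had been scaled to 1 level, which removes differences in total RNA per cell. Scan dates were not used here, and the number of arrays limits the precision.

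Of 45101 probe sets, 64 controls were left out, and 34945 had 1 symbol, 932 several and 9160 none. Signals were converted to log2(signal + 16), where folds of dim genes come out too small. The test was two-sided, lmFit and then eBayes with a trend, in limma 3.58.1 (R 4.3.3), and p-values were adjusted by Benjamini-Hochberg over 9941 genes and a threshold of 0.05. Python 3.11.15 with pandas 2.3.3 made the tables and matplotlib 3.10.9 the plots. The fit was tested on simulated data.

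The members, lists, tests and alternatives were chosen with earlier results of these data known. Named were all called genes, in each role the member with the largest difference and the brightest, members below the filter, and others chosen after their values were seen. The 20 alternatives changed the pseudocount, the normalization, the filter or the choice of probe sets, dropped the variance trend, weighted arrays, added a replicate block or the Xist class, or left out each array in turn. No pair of arrays shared more than 271 values, and the labels call the arrays biological replicates. Of the marker lists, 4 epithelial, 1 other stromal and 6 macrophage and dendritic cell genes were tested. So were 1 B-cell, 1 granulocyte and 1 NK gene, but no erythroid gene, and none passed the threshold. Epcam (-0.57, adjusted p = 0.0796, limma) and Pecam1 (-0.36, adjusted p = 0.139, limma) were lower on every Mutant than on every Control array. Col3a1 (3.5 to 10.7 on Control, 20.7 to 31.4 on Mutant arrays) and Ms4a1 (17.1 to 21.2 and 23.4 to 37.5) were higher on every Mutant array, but too dim to be tested. Summed signals of the other stroma list were 688 to 733 on Control and 450 to 698 on Mutant arrays. Most of that was Pecam1 (651.1 to 711.8 and 387.4 to 646.9), and the list's other 4 genes were dim on all arrays. For B cells the sums were 360 to 616 and 495 to 679, mostly from Cd79b (319.5 to 557.4 and 417.4 to 610.6). Sums were 336 to 603 and 382 to 527 for macrophages and dendritic cells, and 6.0 to 62.1 and 16.3 to 58.5 for erythroid cells. They were 45.4 to 85.8 and 65.2 to 164 for granulocytes, and 60.9 to 130 and 69.1 to 154 for NK and gamma-delta cells. The part of these cell types in any result was not tested.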

Additional observations from a re-analysis of the deposited data

Results flagged for a closer look

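Single arrays stood apart within their group for 2 members and 3 other genes of the pathway, by the gap to the nearest array over the whole range of the 4 on the log2 scale. Psma7 read 2264.7 on Mutant 4 and 2059.6 to 2073.6 on the other Mutants. Psme4 read 1366.7 on Control 1 and 1976.7 to 2091.6 on the other Controls. Ubqln4, a shuttle for ubiquitin-tagged proteins, read 297.1 on Control 2 and 362.8 to 369.5 on the other Controls, and 471.1 on Mutant 4 against 322.9 to 329.1 on the other Mutants. Ngly1 read 1719.0 on Mutant 4 and 1973.9 to 1979.9 on the other Mutants. Nploc4, a cofactor of the unfoldase Vcp, read 409.5 on Mutant 3 and 459.6 to 467.0 on the other Mutants. In all, 148 groups of 4 arrays were examined, over the 44 tested members, the 27 tested pathway genes, Myb, Rag2 and Dntt, and 6 stood apart, where chance gives about 1 in 20.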

How the results depend on the processing

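The count of members higher on the arrays labelled Mutant was 1 under every alternative but the Xist class (0) and ranged from 0 to 1 with an array left out. The count lower was 0, but 1 with the mean of probe sets and 1 without _x_at and _s_at probe sets (Psma6 both times), and 0 to 1 with an array left out. Over all genes, median centring gave 450 higher and 518 lower, array weights 1035 higher and 710 lower, the Xist class 15 and 11, and leaving out an array 288 to 706 higher and 220 to 511 lower; the cause was not tested. For the pathway lists, the Xist class gave 0 higher and 0 lower, the fit with no dim filter 0 lower, the fit without _x_at and _s_at probe sets 2 lower, and leaving out an array 1 to 3 higher and 0 to 1 lower. The median difference of members was 0.026 in the main fit, 0.083 with the Xist class and -0.02 to 0.08 with an array left out. Signs turned for Psmc4 (0.12 with the Xist class, -0.29 to 0.040 with an array left out), Psmd2 (-0.0017 with median centring, -0.021 to 0.094), Psmd5 (-0.039 with the Xist class, -0.018 to 0.14), Psme4 (0.21 with the Xist class, -0.36 to -0.16), Psmb10 (-0.0071 to 0.15) and Nfe2l1 (-0.019 with quantile normalization, -0.032 with median centring, -0.15 with the Xist class, -0.062 to 0.078). The replicate numbers were not taken to pair the samples in the main fit. Deviations of same-numbered arrays from their group means correlated at 0.0037, 0.17, -0.27 and 0.36, and those of differently numbered arrays at -0.39 to 0.37. These 4 values cannot exclude a pairing. With the replicate block 1035 genes were called against 992, 1 member was higher and 0 lower, and Psmg1 had an adjusted p of 0.0221 in limma. Of the settings tried for 36 single genes, 669 values kept direction and call, 32 lost the call, 4 gained it and 15 changed sign. These 36 leave out the 17 members given without a sign, each of which changed sign under at least 1 alternative. The tally therefore makes the members look more stable than they were. The Xist class leaves 1 Control array to stand for the Xist-high Controls, and that fit assumes that it varies like the others.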
